A study of Mus musculus with 12 samples.

Results

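The miR-17-92 cluster is a group of 6 miRNAs that are cut from 1 primary transcript. Its members here are the 6 rows of the array table whose ID is exactly mmu-miR-17, mmu-miR-18a, mmu-miR-19a, mmu-miR-20a, mmu-miR-19b or mmu-miR-92a (written without the species prefix from here on), of 710 mouse miRNAs in all, and all 6 were found. The table holds peripheral blood of 12 mice, 6 carrying a knockout of Tff3, the gene of the secreted mucosal peptide trefoil factor 3, and 6 wild types, with 3 male and 3 female mice per genotype. Blood went into a stabilising solution, total RNA with its small RNAs was isolated from the pellet with a column kit, and biotin was introduced by primer extension on the array, per the labels' protocols. The labels give no strain, age, allele or treatment, and the design text speaks of a knock-down where the labels speak of a knockout. The array carries no probe for Tff3, so the genotype could not be checked. In bulk blood, fewer cells of a type and less of a miRNA per cell cannot be told apart.

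The cluster is transcribed as a long non-coding RNA, under the control of MYC among other factors, and Drosha and Dicer cut it into hairpins and then into mature miRNAs. It is best known for promoting cell survival and proliferation, and mice without it have defects in B cell and lung development. Targets described for its members include the apoptosis gene Bim, and miR-92a has been tied to blood vessel growth. Because each hairpin is cut separately, the mature miRNAs of 1 transcript need not accumulate together.

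The 6 hairpins lie within 836 bases of chromosome 14 on the plus strand, at chr14:115043671-115044506 of GRCm38.p6. RefSeq annotates the long non-coding gene Mir17hg at chr14:115044390-115046728, which covers the last hairpin and leaves the first ones upstream of its annotated start. The mature sequences below are RefSeq's, given in the order of the hairpins, with the seed, bases 2 to 8, in capitals. They are shown because the seed decides which targets a miRNA can pair with and because near-identical members may be hard for an array to separate. Array IDs follow older names, and each ID without a star was taken as the guide strand, today's 5p arm for miR-17, miR-18a and miR-20a and today's 3p arm for the others.
miR-17: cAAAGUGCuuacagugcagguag
miR-18a: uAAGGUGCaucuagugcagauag
miR-19a: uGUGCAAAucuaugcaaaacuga
miR-20a: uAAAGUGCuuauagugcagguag
miR-19b: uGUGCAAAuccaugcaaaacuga
miR-92a: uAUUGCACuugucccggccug

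The members carry 4 seeds. miR-17 and miR-20a share AAAGUGC and differ at 2 of 23 positions, C1U and C12U, written with the base of miR-17 first and counted from the 5′ end. miR-19a and miR-19b share GUGCAAA and differ at 1 of 23 positions, U11C, with the base of miR-19a first. miR-18a has AAGGUGC and differs from miR-20a at 4 of 23 positions. miR-92a has AUUGCAC, and over its 21 bases it differs from each of the other members at 13 to 16 positions.

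Related clusters hold near copies of these sequences. On chromosome X, the Mir19b-2 and Mir92-2 loci encode the same mature miR-19b and miR-92a, so the signal of either row may come from both loci. miR-106a of that cluster differs from miR-17 by U10A alone, and miR-20b differs from miR-20a by U1C and U10C. miR-93 and miR-106b, from a cluster on chromosome 5, also carry the seed of miR-17.
miR-106a: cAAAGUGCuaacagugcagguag
miR-20b: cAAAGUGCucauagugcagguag
miR-93: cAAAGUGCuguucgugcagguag
miR-106b: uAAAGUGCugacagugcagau
Whether a probe reads its near copy was not tested.

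The hairpin of miR-17, at chr14:115043671-115043754, shows how 1 precursor gives 2 array rows. Its capitals mark the guide strand, read as miR-17, and then the passenger strand, read as miR-17*.
Mir17 hairpin: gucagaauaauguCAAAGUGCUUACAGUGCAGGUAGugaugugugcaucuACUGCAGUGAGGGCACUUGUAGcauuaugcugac

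Summed intensity per array ran from 391740 to 1111471, and the 2 highest sums of the wild types were those of columns 7 and 8. Wild types carry the numbers 7 to 12 in the raw table and 1 to 6 in the labels. In the authors' normalized table, whose columns are the samples themselves, each sample ranked its miRNAs like exactly 1 raw column (Spearman's rho 1.0000, next best at most 0.9520), and wild types 1 to 6 matched columns 7 to 12 in turn. Raw columns were therefore used for genotype, and the authors' table for sex. The erythroid markers miR-451, miR-486 and miR-144, the leukocyte markers, the neutrophil miRNA miR-223, the lymphocyte markers and the platelet markers fixed for blood all read above 0 on every array. So did miR-122 of liver and miR-143 and miR-145 of smooth muscle and stroma, whereas 2 readings of the 3 muscle miRNAs lay at or below 0. A reading above 0 can still be dim. The leukocyte marker miR-142-3p read 8 to 144, at 0.0588 to 1.24 times its array's median intensity, and it enters the pan-leukocyte sums given further on.

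All 6 members read well above the dim part of the array in both genotypes. miR-17 had raw intensities of 3033, 4629 and 5934 in knockouts (lowest, median and highest of 6), with 3109, 4585.5 and 7530 among wild types. miR-20a read 1124, 2003 and 2853 in knockouts, against wild-type values of 1149, 1931 and 2629. Before any normalization the genotypes overlapped widely for both, with the wild types of columns 7 and 8 above every knockout for miR-17, at 6810 and 7530. miR-18a was the member closest to the array's middle, between 2.87 and 8.08 times the median intensity of its array, with knockouts at 264, 514 and 1060 and wild types at 264, 486 and 824. miR-92a read 5461.5, 7720 and 12795 in knockouts, against wild-type values of 3921, 7502 and 16880. Its wild types enclosed all knockouts, with columns 7 and 8 the highest. Intensities of different rows are not set against each other as amounts, because probes differ in efficiency.

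The miR-19 pair had a different shape. miR-19a read 1553, 2321 and 2881 in knockouts, against wild-type values of 696, 1192.5 and 4033. Its 2 highest values of all were the wild types in columns 7 and 8, at 4033 and 3421, and its 4 lowest the wild types in columns 9 to 12, at 1513, 872, 696 and 792. miR-19b read 8694, 12967 and 20049 in knockouts, against wild-type values of 3561, 7994 and 22605. The wild type of column 8 was the highest, those of columns 10, 11 and 12 were the lowest, and those of columns 7 and 9 lay within the knockouts' range. For both rows the wild-type range enclosed the knockout range.

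**Figure D1:**
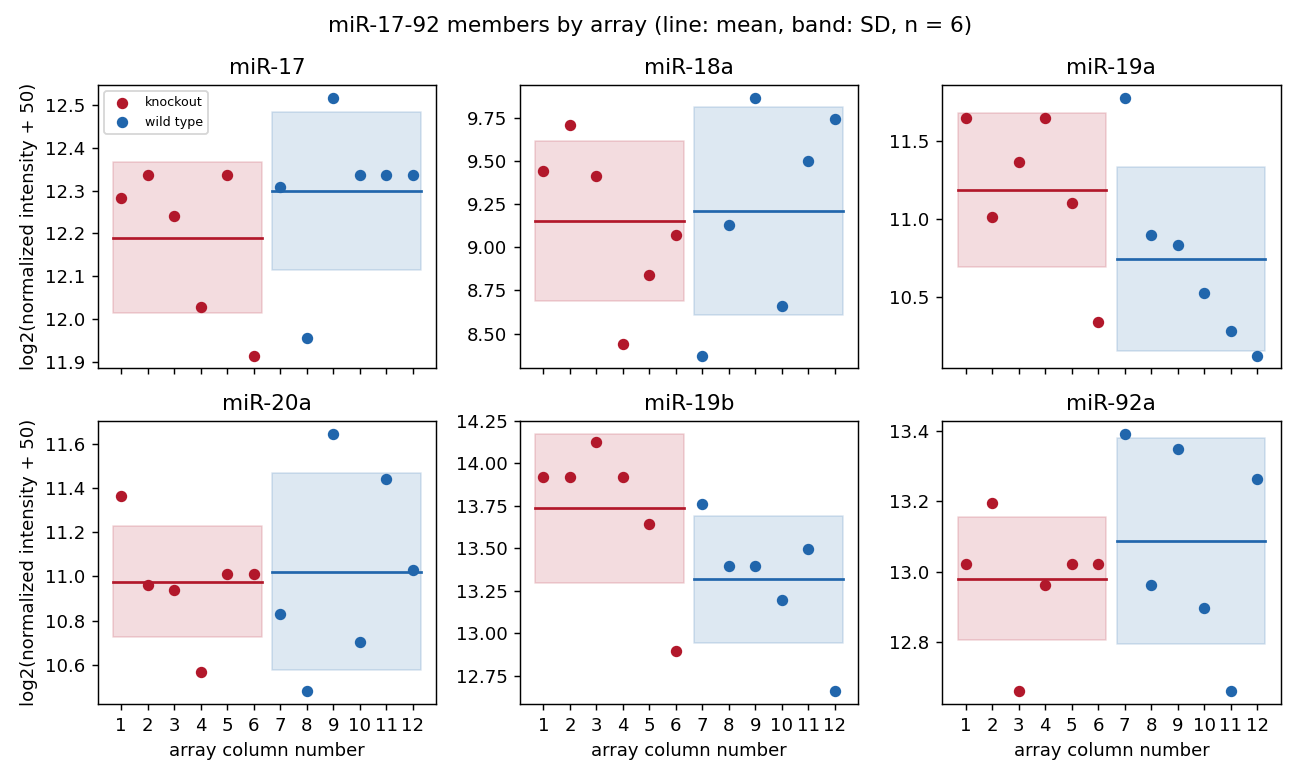
Level of each member, log2(quantile-normalized intensity + 50), by array column number, with knockouts in columns 1 to 6 and wild types in 7 to 12; points are arrays, lines genotype means and bands SD (n = 6 each). The genotypes overlap for every member, and miR-19a is lowest in the wild types of columns 11 and 12, at 10.28 and 10.12.

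The main comparison asked whether the loss of Tff3 goes with a change of these miRNAs in blood. No member passed the test in either direction. Levels are log2(quantile-normalized intensity + 50), on which a log2 difference of 1 is a doubling for bright rows, and the threshold is an adjusted p of 0.05 over all 710 miRNAs. Of the 6 members 0 passed with limma, against 0 of 710 miRNAs (0%), and 0 of the 6 had an unadjusted p under 0.05, against 64 of 710 (9.01%), of which 4.37% of all miRNAs were higher and 4.65% lower in knockouts. With the exact Wilcoxon rank-sum test 0 passed as well, with 0 members and 53 of all miRNAs at an unadjusted p under 0.05. With cyclic loess in place of quantile normalization, miR-19a and miR-19b had an unadjusted p under 0.05, at 0.0414 and 0.0248 (limma's adjusted p 0.545 and 0.532), against 61 of 710 miRNAs. So did miR-19b with array weights (limma's unadjusted p 0.0412) and in the authors' table with sex as a covariate (0.0367). Both did without column 7 (limma's unadjusted p 0.0134 and 0.0292, miR-19a first) or without knockout 6 (0.0282 and 0.00746). Apart from the replicate block given further on, no other alternative brought a member under 0.05, and no adjusted p passed. The genotypes overlapped for all 6 members, where 5 of 710 miRNAs (0.704%) had groups that did not. The members' median log2 difference was -0.05, against -0.0015 over all miRNAs, with 2 of 6 positive against 351 of 710 (49.4%).

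The 2 members with a positive difference were the miR-19 pair. miR-19b, which with miR-19a carries much of the cluster's known oncogenic activity in mouse lymphoma, had a mean level of 13.74 ± 0.44 (SD, n = 6) in knockouts, against 13.32 ± 0.37 (n = 6) in wild types. Its log2 difference was 0.42 with a 95% confidence interval of -0.04 to 0.88 and limma's adjusted p of 0.586. miR-19a was at 11.18 ± 0.49 and 10.74 ± 0.59, a log2 difference of 0.45 with an interval of -0.13 to 1.02 and limma's adjusted p of 0.638. For each, 5 of 6 knockouts lay above the wild-type mean, and knockout 6 was the exception, at 12.90 for miR-19b and 10.34 for miR-19a. Knockout 6 also held the highest level of the liver miRNA miR-122 among the knockouts, 12.34 against 6.68 to 8.41. In wild types miR-122 was at 11.77, 11.82 and 12.90 in columns 10, 11 and 12, which held the lowest wild-type levels of miR-19a (10.53, 10.28 and 10.12), and at 6.95, 8.47 and 8.04 in columns 7, 8 and 9. The level of miR-19b in column 11, at 13.50, was above the wild-type mean. Knockout 6 and, by the match of the tables above, the wild types of columns 10 to 12 are females. Knockouts 4 and 5 are females too, with miR-122 at 7.73 and 8.41. Neither the part of such tissue RNA nor that of sex in the result was tested.

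Among the blood cell markers, the summed level of the 4 lymphocyte miRNAs was 32.78 to 37.73 in knockouts and 37.07 to 40.25 in wild types. The log2 difference was -1.08 for miR-181a (limma's adjusted p 0.135), -0.89 for miR-181b and -0.60 for miR-342-3p. miR-150, 1 of the 4, ran the other way at a log2 difference of 0.16. In knockouts miR-181b was dim, at 0.345 to 0.722 times its array's median intensity. The erythroid miR-144 was higher than the wild-type mean in all 6 knockouts, with a log2 difference of 1.02 (limma's unadjusted p 0.0183, adjusted p 0.415). The other erythroid markers, miR-451 and miR-486, did not share this, at log2 differences of -0.09 and -0.04. The part of the lymphocyte or erythroid markers in the differences of the miR-19 pair was not tested.

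The other 4 members differed by less. miR-17, the founding member of the AAAGUGC family, averaged 12.19 ± 0.18 (SD, n = 6) in knockouts, against 12.30 ± 0.18 (n = 6) in wild types, and its difference was -0.11 with a confidence interval of -0.41 to 0.19. Its wild types of columns 10, 11 and 12 shared the same value, 12.34, since quantile normalization gives equal ranks equal values. miR-92a was at 12.98 ± 0.18 and 13.09 ± 0.29, a log2 difference of -0.11 with an interval of -0.45 to 0.23. For miR-20a the log2 difference was -0.04, with an interval of -0.47 to 0.38, and for miR-18a, whose maturation is known to be aided by hnRNP A1, it was -0.06, with an interval of -0.63 to 0.51. Limma's adjusted p was 0.861 for miR-17, 0.947 for miR-18a, 0.947 for miR-20a and 0.876 for miR-92a. The intervals were narrowest for miR-17 and widest, among these 4, for miR-18a.

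**Figure D2:**
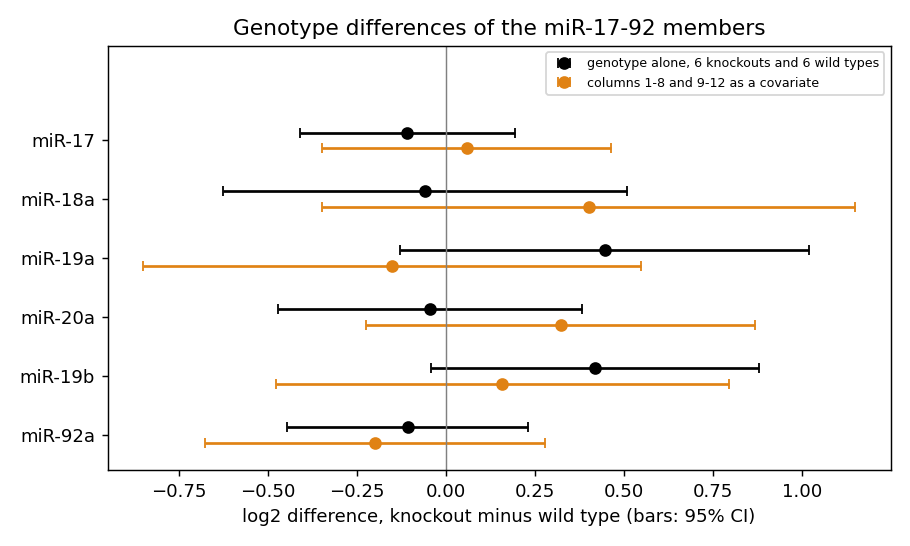
Log2 difference, knockout minus wild type, of each member with its 95% confidence interval, from genotype alone and with the columns 1 to 8 and 9 to 12 as a covariate. All 12 intervals include 0, and miR-19a moves from 0.45 to -0.15.

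These differences depend on which wild types they are set against. With the columns 1 to 8 and 9 to 12 as 2 blocks, which compares the knockouts with the wild types of columns 7 and 8 alone, the log2 difference of miR-19a turned to -0.15 and that of miR-19b was 0.16. In the same fit miR-17, miR-18a and miR-20a turned to 0.06, 0.40 and 0.32, and miR-92a was at -0.20. By the match of the tables above, columns 7, 8 and 9 hold the male wild types and columns 10 to 12 the 3 females. This fit therefore sets knockouts of both sexes against males alone. Among the wild types the blocks follow sex except for column 9. Its miR-19a level, 10.83, lay between those of column 8 (10.90) and column 10 (10.53). The part of the sex difference given further on in the gap between the columns was not tested. No member passed in that fit, where limma's adjusted p lay between 0.820 and 0.972 for the 6. The split into these columns was taken from earlier results of these data, and no label names a carrier or run. The 2 columns 7 and 8 were not alike for miR-19a, at 11.77 and 10.90, against 10.12 to 10.83 in columns 9 to 12. The mean level of the wild types in columns 7 and 8 exceeded that of columns 9 to 12 by 0.89 for miR-19a. Of the 710 miRNAs, 20 (2.82%) had a higher gap in this direction. The same gap was 0.39 for miR-19b and 0.14 for miR-92a. It ran the other way for miR-17, miR-20a and miR-18a, at -0.25, -0.55 and -0.69. The summed level of the 3 pan-leukocyte miRNAs was 25.53 to 25.75 in columns 7 and 8, 22.25 to 24.58 in columns 9 to 12 and 24.12 to 25.98 in knockouts, and its part in the gap of miR-19a was not tested. The summed level of the 3 erythroid miRNAs was 35.31 to 37.16, 34.26 to 36.78 and 35.44 to 38.86 in the same order.

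Ratios between members within 1 array do not depend on any scaling of the array. Among the ratios of miR-17 over another member, those over miR-20a and over miR-92a varied least. The log2 ratio of raw intensities of miR-17 over miR-20a stayed within 0.99 to 1.65 on all 12 arrays, with a mean of 1.22 ± 0.20 (SD, n = 6) in knockouts, against 1.37 ± 0.21 (n = 6) in wild types. That of miR-17 over miR-92a was -0.81 ± 0.18 and -0.78 ± 0.37. That of miR-17 over miR-18a varied widely, from 2.48 to 3.84 in knockouts and from 2.54 to 4.69 in wild types. That of miR-17 over miR-19a averaged 0.99 ± 0.47 in knockouts, against 1.66 ± 0.57 in wild types. It stood at 0.76 and 1.14 in the wild types of columns 7 and 8, inside the knockouts' range of 0.27 to 1.66, and 1.88, 2.05, 2.16 and 1.99 in columns 9 to 12, above every knockout. For miR-17 over miR-19b it averaged -1.55 ± 0.41 in knockouts, against -0.90 ± 0.51 in wild types, with -1.34 and -1.59 in columns 7 and 8 and -0.89 to -0.18 in columns 9 to 12. Knockout 6, at -0.83, lay among the latter. The ratio of miR-19a over miR-19b was nearly the same in both genotypes, -2.54 ± 0.28 and -2.56 ± 0.37. These ratios are a description without a test.

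**Figure D3:**
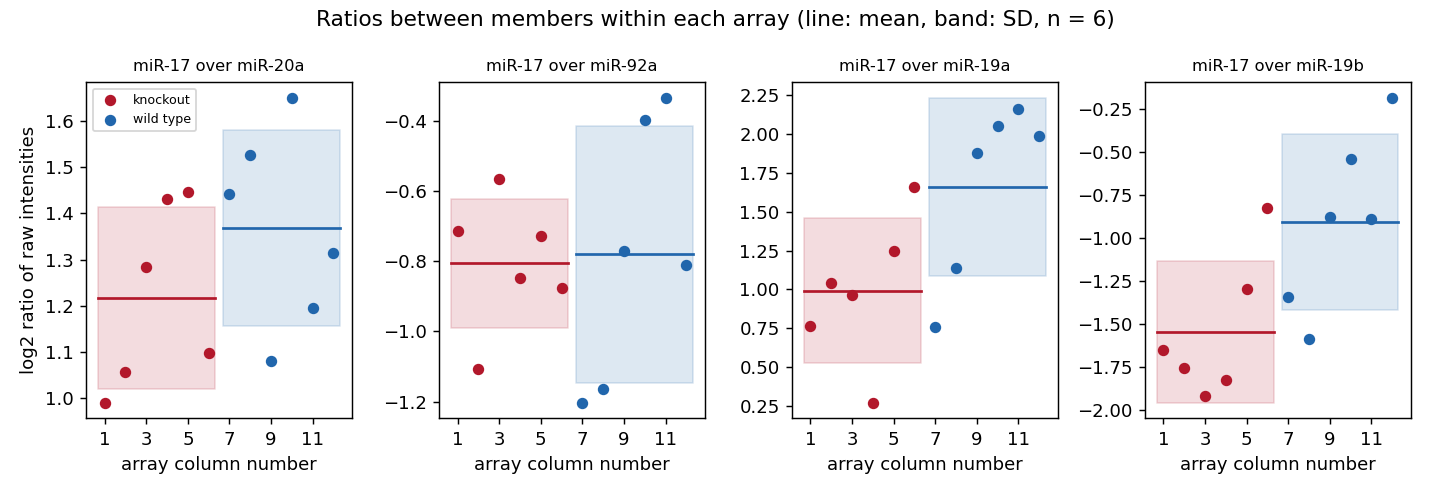
Log2 ratio of raw intensities of miR-17 over miR-20a, miR-92a, miR-19a and miR-19b by array column number; points are arrays, lines genotype means and bands SD (n = 6 each), and each panel has its own vertical scale. The ratio of miR-17 over miR-19a is 1.88 to 2.16 in columns 9 to 12 and at most 1.66 in columns 1 to 8.

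In quantile-normalized levels, miR-19a and miR-19b rose and fell together across the 12 mice, and the cluster as a whole did not. Of the 15 pairs of members, the miR-19 pair alone passed a permutation test after Benjamini-Hochberg adjustment over the pairs, with Pearson's r of 0.83 (permutation p = 0.00086, adjusted p = 0.0129) and Spearman's rho of 0.80 (permutation p = 0.00257, adjusted p = 0.0386). Without the 2 arrays farthest from the median level of miR-19a, r was 0.82. It was 0.86 within the knockouts, 0.76 within the wild types and 0.80 within the columns 1 to 8. Over all pairs of the 710 miRNAs the median r was -0.0015, and 0.199% of pairs had a higher r than this one. The 2 rows differ by 1 base, so how far 1 miRNA is read by both probes was not tested. miR-18a and miR-20a had r = 0.66 and rho = 0.70 (permutation p = 0.0196 and 0.0133, adjusted p = 0.147 and 0.100), and miR-17 and miR-20a had r = 0.62 and rho = 0.54 (permutation p = 0.0298 and 0.0706, adjusted p = 0.149 and 0.344). The other 12 pairs had r between -0.44 and 0.40, and 9 of all 15 were positive against 49.9% of all pairs of miRNAs. This pattern rests on quantile normalization. Without normalization, where bright arrays raise all rows, 11 of the 15 pairs passed, and 9 passed with scaling to the 75th percentile. The r over all pairs of miRNAs was not taken in those settings. The miR-19 pair passed under each of them, with r of 0.93 without normalization.

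**Figure D4:**
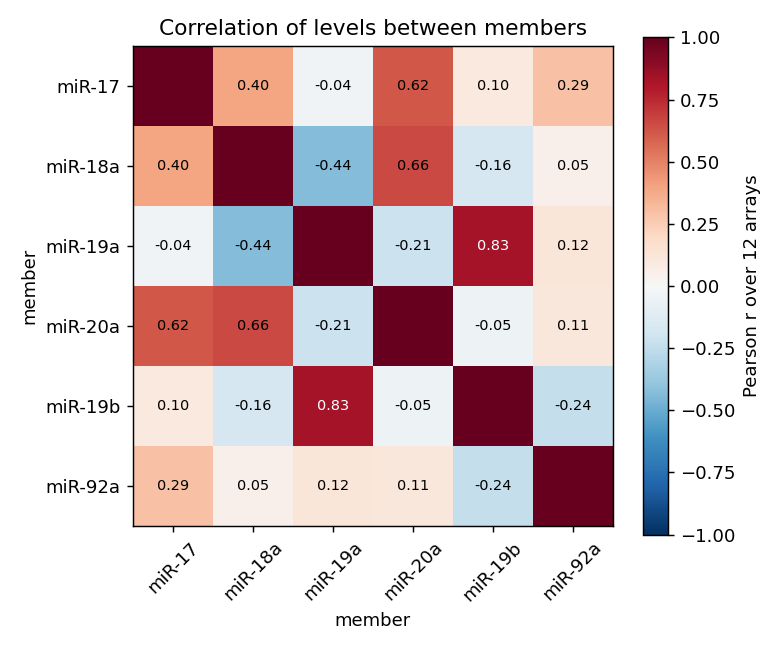
Pearson's r of quantile-normalized log2 levels between the members over 12 arrays, as numbers and colour. The miR-19 pair stands at 0.83, and miR-20a reaches 0.62 with miR-17 and 0.66 with miR-18a.

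Among all 709 other miRNAs, the one most like miR-19b over the 12 arrays was miR-19a, and miR-19b ranked 6 for miR-19a. Most like miR-19a were miR-374 (r = 0.90), let-7g (0.89) and the leukocyte miRNA miR-142-5p (0.87). The next after miR-19a for miR-19b were miR-350 (0.80) and miR-380-3p (0.79). No other member had a member among its 3 most like. For miR-20a these were miR-500, miR-653 and miR-290-5p (0.85, 0.75 and 0.73), with miR-18a at rank 7 and miR-17 at rank 10. For miR-17 they were miR-374*, miR-103 and miR-101b (0.73, 0.72 and 0.71), for miR-18a miR-599, miR-883a-3p and miR-343 (0.87, 0.77 and 0.74), and for miR-92a miR-181a-2*, miR-693-5p and miR-764-3p (0.86, 0.77 and 0.73). These likenesses are a description over arrays that share 1 normalization.

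Sex was compared in the authors' normalized table, where it is known for all 12 mice. No member passed the test. Over both genotypes the miR-19 pair had the largest differences of the 6, while within the 6 knockouts of the raw table that of miR-18a was the largest, at -0.74 (limma's unadjusted p 0.00632, adjusted p 0.324), and that of miR-19a was -0.32. Levels there are log2(authors' value + 50). In knockouts, miR-19a had the authors' values 2662, 1816 and 2241 in males and 2662, 1925 and 1131 in females. In wild types it had 2916, 1659 and 1598 in males and 1291, 1093 and 973 in females. The wild-type females lay below all wild-type males, while the sexes overlapped in the knockouts. Over both genotypes females minus males was -0.55 on the log2 scale for miR-19a, with a standard error of 0.22 and a confidence interval of -1.01 to -0.08 (limma's unadjusted p 0.0245, adjusted p 0.310).

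miR-19b had the authors' values 13765, 13765 and 15507 in male and 13765, 11069 and 6513 in female knockouts. In wild types it had 12193, 9310 and 9310 in males and 8002, 10029 and 5605 in females. The female values reached lower in both genotypes, with some overlap in each. Its difference was -0.46, with a standard error of 0.19 and an interval of -0.87 to -0.06 (limma's unadjusted p 0.0271, adjusted p 0.320). The log2 differences of miR-18a, miR-92a, miR-17 and miR-20a were -0.27, -0.12, -0.06 and -0.06. With limma 0 of 6 members passed, against 1 of 710 miRNAs (0.141%), the liver miRNA miR-122. The pair were the 2 of 6 members with an unadjusted p under 0.05, against 87 of 710 (12.3%), of which 41 (5.77%) were lower and 46 (6.48%) higher in females. All 6 members had a negative difference, where 50.6% of all miRNAs had a positive one, and the members' median was -0.19 against 0.0026 over all miRNAs.

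**Figure D5:**
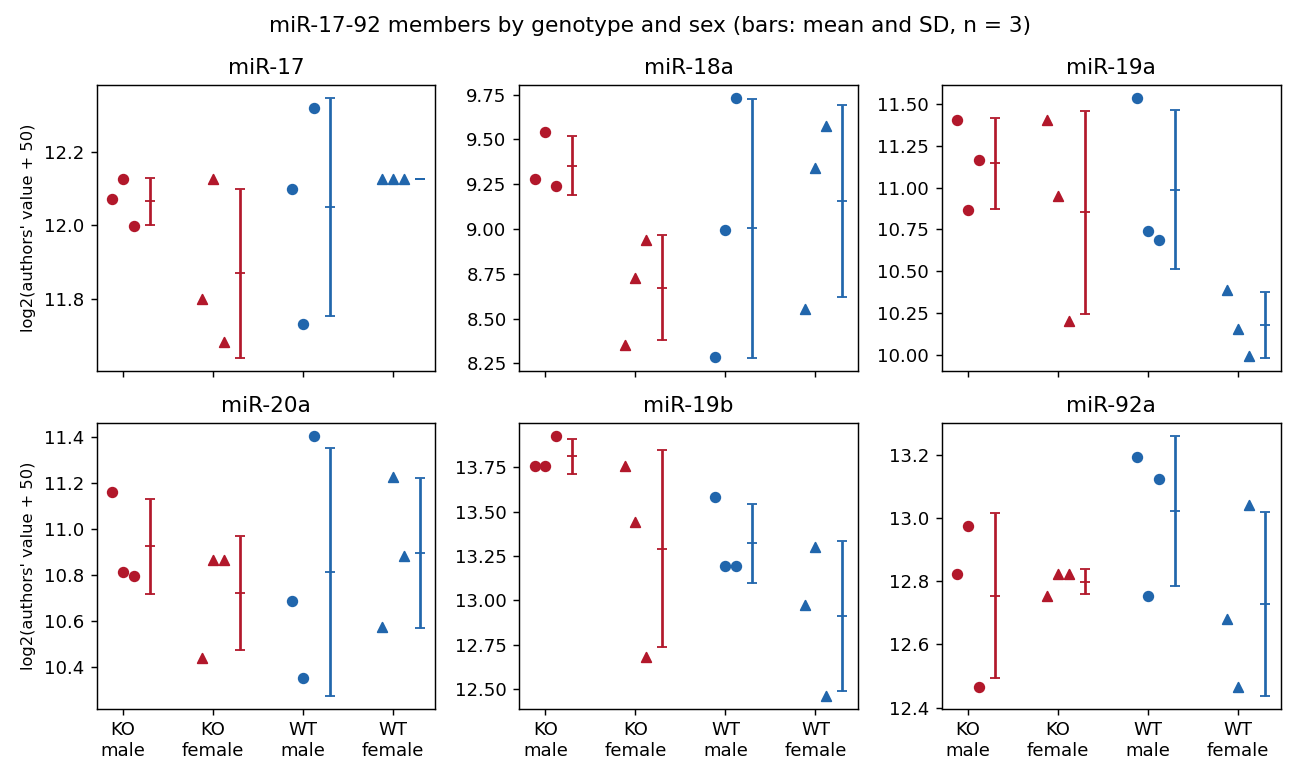
Level of each member in the authors' normalized table, log2(value + 50), by genotype and sex (KO, knockout; WT, wild type); points are mice, bars beside them mean and SD (n = 3 each). miR-19a in wild types has a mean of 10.99 in males and 10.18 in females; the 3 female wild types share 1 value for miR-17.

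Other miRNAs had larger sex differences in the same table. Females minus males was -0.73 for the erythroid miR-451 and -0.67 for the leukocyte miR-142-5p, and 0.83 for the lymphocyte miR-342-3p and 3.44 for miR-122. Only miR-122 passed, with limma's adjusted p of 0.0357, against 0.0972 for miR-451 and miR-342-3p and 0.310 for miR-142-5p. Of the other markers of the same lists, miR-144 was at -0.69, miR-142-3p at -0.55, miR-181a at 0.54 and miR-150 at 0.28. The rest hardly differed, with miR-486 at -0.04, miR-146a at 0.01 and miR-181b at 0.01. The summed level of the 3 erythroid markers was 34.84 to 38.22 in males and 33.87 to 35.80 in females, that of the 3 pan-leukocyte markers 23.92 to 25.79 and 22.01 to 24.94, and that of the 4 lymphocyte markers 32.49 to 37.89 and 35.63 to 39.64. Their part in the difference of the miR-19 pair was not tested. Males come before females in the numbering of both genotypes, so within a genotype sex and column order cannot be told apart.

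Whether the genotype difference itself depends on sex was tested as an interaction, and no member passed. Among all miRNAs 0 of 710 passed (0%), with 42 at an unadjusted p under 0.05 (5.92%, of which 2.96% were positive and 2.96% negative) and 0 of the 6 members among them. The term was positive for 2 of 6 members, against 47.5% of all miRNAs. For miR-18a, knockout minus wild type was 0.35 in males and -0.48 in females, an interaction of -0.83 on the log2 scale with a standard error of 0.48 (limma's adjusted p 0.679). For miR-19a it was 0.16 in males and 0.67 in females, an interaction of 0.51 with an interval of -0.41 to 1.44. For miR-19b it was 0.49 and 0.38, an interaction of -0.11.

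No passenger strand of the locus passed either. Of the 6 names fixed, 5 were on the array, and 0 passed with limma and 0 had an unadjusted p under 0.05, where 0% and 9.01% of all miRNAs did, so that fewer than 1 of 5 would be reached at that share. miR-17*, from the hairpin shown above, averaged 9.91 ± 0.34 (SD, n = 6) in knockouts, against 10.15 ± 0.46 (n = 6) in wild types, which is -0.25 on the log2 scale (standard error 0.22, limma's adjusted p 0.786). The fitted log2 differences of miR-20a* and miR-18a* were 0.26 and -0.08. miR-19a* and miR-92a* read below their array's median intensity on all 12 arrays, at raw values of -4 to 88 and 8 to 80, so a change of either could hardly be measured.

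The paralogue clusters, which carry the same families of seeds, gave 0 of 7 members past the threshold and 0 with an unadjusted p under 0.05, a count that the share of 9.01% over all miRNAs would also put under 1. miR-18b and miR-363 were dim, below their array's median intensity on 11 and 9 of 12 arrays. miR-106a, which differs from miR-17 by 1 base, averaged 11.98 ± 0.13 (SD, n = 6) in knockouts, against 12.22 ± 0.26 (n = 6) in wild types, which is -0.24 on the log2 scale (standard error 0.15, limma's adjusted p 0.670). For miR-106b and miR-93 the log2 differences were -0.23 and -0.23, for miR-25, a seed mate of miR-92a, 0.16, and for miR-20b -0.01. Of the 5 other rows with the seed AAAGUGC or the seed of miR-18a, namely miR-106a, miR-106b, miR-93, miR-20b and miR-18b, the log2 differences lay between -0.24 and 0.10. The seed mates of miR-92a outside these clusters, miR-92b, miR-32 and miR-367, differed by -0.21, -0.09 and 0.11, and miR-367 read below its array's median on 11 of 12 arrays.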

How the data were processed

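The authors deposited 2 tables of 710 miRNAs by 12 columns, both of array intensities on a linear scale. The raw table runs from -64 to 64623, with 282 values (3.31%) below 0, so its intensities look background-subtracted; no header or label states that step. The normalized table of intensities, per the values, was quantile-normalized by the authors with low values set to 1. The scanner, background method and miRBase release were not stated in the labels or headers.

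Raw intensities were quantile-normalized and transformed to log2(value + 50); the normalized table to log2(value + 50) alone. Two-sided moderated tests from limma 3.58.1 (R 4.3.3) covered all 710 miRNAs without a filter, with Benjamini-Hochberg adjustment. The genotype fit had no covariate; sex was fitted with genotype. Replicates are separate mice per the labels' protocols. Correlations used 100000 permutations. The test was checked on simulated data. Figures used matplotlib 3.10.9. Sequences are RefSeq's for GRCm38.p6, and all 6 members matched.

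All 6 members, the passenger strands, the paralogue clusters, miRNAs with a member's seed and the 3 miRNAs most like each member were named by rule. Members, lists and tests were chosen with earlier results of these data known.

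Alternatives were other normalizations, offsets of 1 and 200, the exact Wilcoxon test, array weights, a filter at the median level, a robust variance with a trend, column blocks, the normalized table and leaving out each array.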

Additional observations from a re-analysis of the deposited data

Results flagged for a closer look

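The 6 arrays of each genotype were searched for a single array standing apart from the other 5, by Dixon's test at its 95% critical value, over 21 miRNAs: the members, passenger strands, paralogues and seed mates. Of 42 such groups 6 (14.3%) held one, where chance gives about 5% and 91 of the 1420 groups of all 710 miRNAs (6.41%) held one. Each was a low value, given here as its difference from the mean of the other 5 on the log2 scale. Among the members, miR-17 was lower in the wild type of column 8, by -0.41. That array had the highest sum of intensities and, before normalization, the highest raw miR-17 of all 12, at 7530. miR-17* and miR-363 were lower in knockout 6, by -0.80 and -0.75. miR-20a* was lower in knockout 3 by -0.47, miR-18b in the wild type of column 10 by -0.61 and miR-92b in knockout 4 by -0.56. The raw readings behind miR-18b and miR-363 were both 28, at 0.368 and 0.326 times the array's median intensity, and those of miR-20a* and miR-92b were 64 and 88, also below it.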

How the results depend on the processing

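The number of arrays limits every value; over all miRNAs the 95% interval of a genotype difference had a median half-width of 0.40 (log2). No member passed for genotype, sex or their interaction under any alternative run. The genotype differences of miR-19b and miR-92a kept their sign in all 14 alternatives. miR-18a and miR-20a turned to 0.064 and 0.088 when arrays were scaled to their 75th percentile, 0.024 and 0.031 with cyclic loess and 0.076 and 0.10 without normalization. With the column blocks miR-17, miR-18a, miR-19a and miR-20a turned to 0.058, 0.40, -0.15 and 0.32, and with columns 1 to 8 alone to 0.058, 0.43, -0.15 and 0.33. The cause of these turns was not tested. Leaving out each array in turn gave -0.18 to -0.05 for miR-17, -0.22 to 0.084 for miR-18a, 0.33 to 0.65 for miR-19a, -0.14 to 0.082 for miR-20a, 0.27 to 0.59 for miR-19b and -0.20 to -0.04 for miR-92a. It gave 0 to 1 calls over all miRNAs, with 1 without the wild type of column 12. For the sex difference it gave -0.18 to 0.056 for miR-20a, -0.47 to -0.15 for miR-18a and -0.21 to -0.05 for miR-92a, and 0 to 5 calls over all miRNAs, with 5 without knockout 3. The 1 call for sex became 0 in the knockouts alone, without the genotype term and with a trended robust variance, and miR-92a turned to 0.014 in the knockouts alone. For the interaction, leaving out each array gave -0.34 to 0.19 for miR-19b, -1.20 to -0.48 for miR-18a and 0.24 to 0.84 for miR-19a.

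Groups share the replicate numbers 1 to 6 in the labels. Deviations of same-numbered mice correlated at -0.12 to 0.18, so the numbers were not taken to pair mice. With the replicate number as a block the genotype differences were 0.41 for miR-19a and 0.43 for miR-19b (limma's unadjusted p 0.0361 and 0.0132, adjusted p 0.428 and 0.308), -0.12 for miR-17, -0.07 for miR-18a, -0.03 for miR-20a and -0.10 for miR-92a, and 0 miRNAs were called.

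Of the 15 pairs of members, 9 passed when scaled to the 75th percentile of each array and 11 without normalization, against 1. Pairs that turned sign, in that order, were miR-17 with miR-19a (0.65 and 0.71), miR-18a with miR-19b (0.040 and 0.31), miR-19a with miR-20a (0.57 and 0.63), miR-20a with miR-19b (0.68 and 0.73) and miR-19b with miR-92a (0.72 and 0.77). miR-18a with miR-92a turned with the scaling alone (-0.0059) and miR-18a with miR-19a without normalization alone (0.11). The 2 arrays farthest from the median level of a pair's first-named member were also left out, whatever the level of the second. There miR-17 with miR-19b turned to -0.43, miR-18a with miR-19a to 0.0026, miR-18a with miR-19b to 0.10 and miR-20a with miR-92a to -0.25.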
